A study of Rattus norvegicus with 15 samples.

Results

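Opalin, Mbp, Mog, Mag, Mobp, Cnp, Gjc3, Ugt8 and Car2 are 9 genes of myelin and of the oligodendrocytes that form it. They were taken by name, with earlier results of these data known. All 9 were found among the 22314 genes of the deposited count table. All 9 also passed the filter on low counts, which left 14880 genes to test. Their levels were followed across 15 bulk RNA-seq libraries from dorsal CA1, the hippocampal field studied here for memory of a place.

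The animals were male Sprague-Dawley rats of 8 to 9 weeks, labelled wild type, and each library held RNA of all brain cell types. Rnf20 trained libraries (replicates 4, 8, 14, 18 and 20) came from CA1 given Accell siRNA against Rnf20, the E3 ligase that ubiquitinates histone H2B, 5 days before contextual fear conditioning, a task in which a place is paired with a shock. Scrambled trained libraries (replicates 5, 6, 10, 15 and 16) had scrambled Accell siRNA and the same training. Naive libraries (replicates 1, 2, 9, 11 and 12) had scrambled Accell siRNA and no training. Accell siRNA enters cells without a transfection reagent and is not directed to 1 cell type. Every group thus carried siRNA in CA1, no naive group with Rnf20 siRNA is among the samples, and the time from training to dissection is not in the labels. The labels do not say that each library is its own animal, so the p-values speak for the variation among libraries alone.

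Total counts were 12537250 to 18458527 per library in the Rnf20 trained group, 15342480 to 20644425 in the scrambled trained group and 14249375 to 17046535 in the naive group. Rnf20 itself stood at 44.6, 42.5, 42.8, 38.3 and 41.9 CPM in Rnf20 trained libraries, 46.6, 48.5, 36.4, 46.2 and 38.5 CPM in scrambled trained libraries, and 44.7, 40.3, 41.6, 39.1 and 43.5 CPM in naive libraries. The transcript was not detectably lower under its own siRNA label (log2 fold change -0.04 against scrambled trained libraries, SE 0.08, 95% interval -0.22 to 0.13, edgeR adjusted p = 0.945), so the libraries labelled Rnf20 siRNA are named here by that label only.

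Myelin is the multilayered membrane that oligodendrocytes wrap around axons in the central nervous system, where it speeds conduction and supports the axon. Precursor cells that express Pdgfra and Cspg4 leave the cell cycle under the factors Olig2, Sox10 and Myrf, and the maturing cells then switch on the genes for myelin proteins and lipids together. In the hippocampus such cells lie both among the neurons and in the white matter over CA1.

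The promoters of 4 of the genes are shown, chosen as follows. Opalin and Gjc3 had the smallest p-values between scrambled trained and naive libraries among the genes with a promoter window. Mag had the smallest difference in that comparison, and Mobp was the only gene whose mean was not highest in naive libraries. The windows are RefSeq's, on the assembly GRCr8, and run from 250 bases before to 50 after a gene's start, 5′ to 3′ on the strand of the gene. Capitals mark, on either strand, CTGGCAC or CTGGTAC (motifs of the factor MYRF), ACAAAG or ACAATG (SOX factors), CAGCTG (an E-box) and TATAAA, and no matches overlapped. Opalin lies at chr1:249858141-249858440 on the minus strand, Gjc3 at chr12:22024518-22024817 on the minus strand, Mag at chr1:95290995-95291294 on the minus strand and Mobp at chr8:128746982-128747281 on the plus strand.
Opalin: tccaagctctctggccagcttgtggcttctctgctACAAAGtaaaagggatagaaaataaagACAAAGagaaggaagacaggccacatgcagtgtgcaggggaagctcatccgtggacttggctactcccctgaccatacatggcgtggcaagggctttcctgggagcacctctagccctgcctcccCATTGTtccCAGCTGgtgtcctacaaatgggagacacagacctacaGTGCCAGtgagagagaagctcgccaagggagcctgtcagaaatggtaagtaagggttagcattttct
Gjc3: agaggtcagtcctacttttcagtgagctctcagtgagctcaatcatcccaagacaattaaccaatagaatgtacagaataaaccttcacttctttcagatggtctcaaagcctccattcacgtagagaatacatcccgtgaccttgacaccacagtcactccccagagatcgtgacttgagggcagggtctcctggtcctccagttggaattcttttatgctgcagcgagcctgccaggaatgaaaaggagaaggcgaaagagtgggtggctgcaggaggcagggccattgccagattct
Mag: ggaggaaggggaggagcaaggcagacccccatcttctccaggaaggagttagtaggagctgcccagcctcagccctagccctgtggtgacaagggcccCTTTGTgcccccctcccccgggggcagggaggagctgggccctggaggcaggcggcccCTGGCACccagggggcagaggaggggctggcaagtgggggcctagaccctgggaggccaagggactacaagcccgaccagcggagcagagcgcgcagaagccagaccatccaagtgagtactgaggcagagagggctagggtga
Mobp: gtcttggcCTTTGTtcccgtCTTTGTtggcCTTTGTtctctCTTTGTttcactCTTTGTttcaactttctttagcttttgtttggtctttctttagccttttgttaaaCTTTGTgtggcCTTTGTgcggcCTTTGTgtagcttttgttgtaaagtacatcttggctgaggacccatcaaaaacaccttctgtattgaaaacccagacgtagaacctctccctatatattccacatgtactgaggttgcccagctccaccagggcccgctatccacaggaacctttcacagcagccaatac

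Of the 9 genes, 7 had a promoter window and Mbp had a pair of them, which gave 8 windows; Mog and Car2 had none. CTGGCAC was in the windows of Opalin, Mag and Cnp, 3 of 8, against 4.75% of all 33469 windows of that length. ACAAAG was in 5 of 8, those of Opalin, Mag, Mobp, Cnp and 1 of Mbp, against 18.8% of all windows. The Mobp window held 8 matches to ACAAAG, all read on the opposite strand as CTTTGT, while the Opalin window held 2. CAGCTG was in 3 of 8 windows against 15.1%, ACAATG in 2 of 8 against 13.2%, and neither CTGGTAC nor TATAAA, which 2.16% and 14.2% of all windows hold, was in any. The Gjc3 and Ugt8 windows held none of the 6 motifs. These matches describe letters and not binding.

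All 9 transcripts had a lower fitted level in scrambled trained than in naive libraries, by log2 differences from -0.71 for Opalin to -0.11 for Mag, with a median of -0.25. Opalin, Car2 and Gjc3 stood apart from the other 6 in size. None of the 9 passed the threshold of adjusted p under 0.05 in edgeR's quasi-likelihood test with Benjamini-Hochberg adjustment over all 14880 genes, where 0 genes, 0% of those tested, passed in each of the 3 comparisons and 1484, 835 and 342 genes had an unadjusted p under 0.05. DESeq2's Wald test on the same counts called Opalin and Car2 lower. They were among 58 genes called in either direction, 0.39% of the 14877 with an adjusted p, and 17 of the 58 were lower. In libraries labelled Rnf20 siRNA, 7 of the 9 means lay between those of the other groups. The share of all genes with that order was not computed, and the 9 genes move together from library to library. In bulk tissue, fewer oligodendrocytes, less RNA per cell and a different part of other tissue in the sample cannot be told apart.

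**Figure D1:**
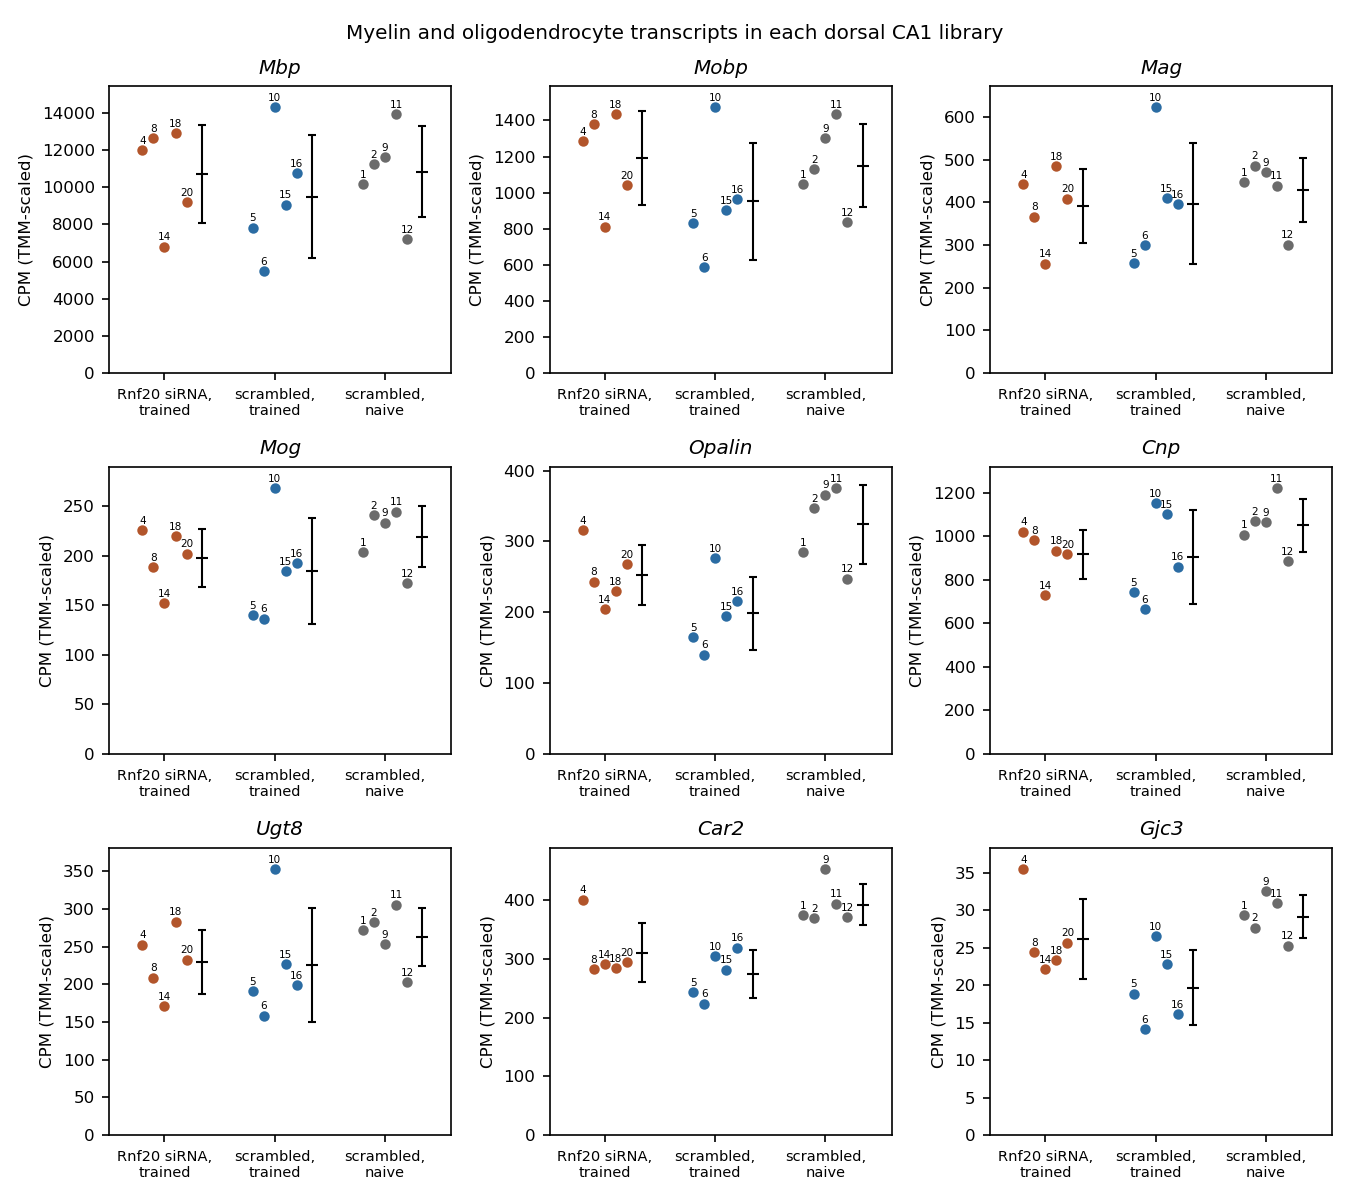
Level of each of the 9 genes in CPM (read counts over the TMM-scaled library size, axis from 0) in every library, numbered by replicate; bars show mean ± SD of 5 libraries. Car2 in scrambled trained libraries (highest 319 CPM) lies below every naive library (lowest 369 CPM), and scrambled trained replicate 10 lies highest for 5 genes while replicate 6 lies lowest for 8.

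Opalin, a transmembrane glycoprotein of central myelin and of the loops beside the node, showed the largest difference of the 9. In the order of replicates given above, it measured 316, 243, 205, 229 and 268 CPM in Rnf20 trained libraries, 165, 140.3, 276, 195 and 215 CPM in scrambled trained libraries, and 285, 347, 366, 375 and 247 CPM in naive libraries. The 4 highest of the 5 naive libraries lay above every scrambled trained library, and only naive replicate 12, below scrambled trained replicate 10, made the groups overlap. Means were 252.3 ± 42.3 CPM in Rnf20 trained, 198 ± 52.1 CPM in scrambled trained and 324 ± 55.5 CPM in naive libraries (SD, n = 5 each). Scrambled trained against naive libraries gave a log2 fold change of -0.71 (SE 0.17, 95% interval -1.08 to -0.34; unadjusted p = 0.000971; edgeR adjusted p = 0.379). DESeq2 gave -0.71 and an adjusted p of 0.0349, and over 30 alternative settings the adjusted p of Opalin ran from 0.0349 to 0.819. Opalin was thus called by DESeq2 and not by edgeR. Rnf20 trained against scrambled trained libraries gave 0.35 (SE 0.17; edgeR adjusted p = 0.832), and Rnf20 trained against naive libraries gave -0.36 (SE 0.17; edgeR adjusted p = 1.00).

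Car2 is a cytosolic carbonic anhydrase that mature oligodendrocytes share with choroid plexus epithelium. In CPM it was the only gene of the 9 to separate scrambled trained from naive libraries without overlap. It measured 401, 283, 292, 284 and 295 CPM in Rnf20 trained libraries, 243, 224, 305, 282 and 319 CPM in scrambled trained libraries, and 375, 369, 453, 394 and 371 CPM in naive libraries. No scrambled trained library reached the lowest naive library, and in the Rnf20 trained group replicate 4 alone lay among the naive values. Means were 311 ± 50.8 CPM in Rnf20 trained, 275 ± 40.4 CPM in scrambled trained and 393 ± 35.2 CPM in naive libraries. The scrambled trained group differed from the naive group by -0.52 on the log2 scale (SE 0.12, 95% interval -0.77 to -0.26; unadjusted p = 0.000629; edgeR adjusted p = 0.379). DESeq2's adjusted p was 0.0192, with 0.0192 to 0.819 over the 30 settings, so Car2 too was called by DESeq2 and not by edgeR. Car2 was the 1 gene of 9 whose 2 groups did not overlap, against 98 of 14880 genes, 0.659%, that lay lower in scrambled trained libraries without overlap. Rnf20 trained against naive libraries gave -0.34 (SE 0.12, unadjusted p = 0.0136, edgeR adjusted p = 1.00), the 1 member of 9 with an unadjusted p under 0.05 in that comparison, where 1.09% of all genes were lower at that p. Of 11 tested choroid plexus markers, 11 were below 0 in scrambled trained against naive libraries (median -0.92), where 52.8% of all genes lay below 0, and 0 of the 11 had an unadjusted p under 0.05. Their summed level was 276 to 2331 CPM in Rnf20 trained, 140 to 5270 CPM in scrambled trained and 1904 to 5572 CPM in naive libraries. Without scrambled trained replicates 5 and 16 and Rnf20 trained replicate 20, the 3 libraries lowest in those markers, the Car2 difference between scrambled trained and naive libraries was -0.54.

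Gjc3, which encodes a connexin of myelinating glia, had the lowest counts of the 9, with 216 to 641 per library, so that counting error alone reached 6.80% in 1 library. It measured 35.5, 24.4, 22.2, 23.4 and 25.7 CPM in Rnf20 trained libraries, 18.9, 14.1, 26.5, 22.8 and 16.1 CPM in scrambled trained libraries, and 29.4, 27.7, 32.6, 30.9 and 25.3 CPM in naive libraries. Scrambled trained replicates 5, 6, 15 and 16 lay below all 5 naive libraries, and replicate 10 lay above the lowest of them. Rnf20 trained replicate 4 was the highest of the 15 libraries. Means were 26.2 ± 5.35 CPM in Rnf20 trained, 19.7 ± 5.02 CPM in scrambled trained and 29.2 ± 2.83 CPM in naive libraries. Gjc3 differed by -0.57 on the log2 scale between scrambled trained and naive libraries (SE 0.16, 95% interval -0.91 to -0.22; unadjusted p = 0.00330; edgeR adjusted p = 0.379, DESeq2 adjusted p = 0.106). Against scrambled trained libraries, Rnf20 trained libraries gave 0.41 (SE 0.16, 95% interval 0.07 to 0.76; unadjusted p = 0.0227; edgeR adjusted p = 0.832). Gjc3 was the 1 gene of 9 with an unadjusted p under 0.05 and a higher level in that comparison, against 2.63% of all genes. Without Rnf20 trained replicate 4 that difference was 0.28 (unadjusted p = 0.0877), and no gene of the 9 then had an unadjusted p under 0.05.

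Compact myelin was represented by Mbp and Mobp. Mbp, myelin basic protein, joins the cytoplasmic faces of the membrane as it compacts, and measured 11988, 12647, 6802, 12909 and 9208 CPM in Rnf20 trained libraries, 7836, 5500.5, 14313, 9067 and 10785 CPM in scrambled trained libraries, and 10163, 11257, 11609, 13953 and 7217 CPM in naive libraries. The highest and the lowest of the 15 libraries were both scrambled trained ones, replicates 10 and 6, and the 3 groups overlapped throughout. Means were 10711 ± 2634 CPM in Rnf20 trained, 9500.3 ± 3308 CPM in scrambled trained and 10839.9 ± 2452 CPM in naive libraries, and trained against naive libraries under scrambled siRNA gave -0.19 (SE 0.24, 95% interval -0.71 to 0.33, edgeR adjusted p = 0.823). Mobp, a small basic protein on the cytoplasmic side of compact myelin, measured 1285, 1379.7, 811, 1434 and 1043 CPM in Rnf20 trained libraries, 829, 586, 1473, 905 and 964 CPM in scrambled trained libraries, and 1048, 1130.2, 1300.4, 1435 and 835 CPM in naive libraries. Its pattern over libraries was close to that of Mbp, with the same highest and lowest library. Mobp means were 1190.5 ± 259.8 CPM in Rnf20 trained, 951 ± 325 CPM in scrambled trained and 1149.7 ± 231 CPM in naive libraries. Rnf20 trained against scrambled trained libraries gave 0.32 for Mobp (SE 0.22, 95% interval -0.15 to 0.79, edgeR adjusted p = 0.838) and 0.17 for Mbp (SE 0.24, edgeR adjusted p = 0.915), and neither passed the threshold.

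Mag and Mog are adhesion and surface proteins of the sheath. Mag, a sialic-acid-binding protein of the innermost membrane that faces the axon, measured 443, 367, 257, 485 and 409 CPM in Rnf20 trained libraries, 258, 299, 623, 409.8 and 397 CPM in scrambled trained libraries, and 448, 486, 472, 439.7 and 301 CPM in naive libraries. Scrambled trained replicate 10 was the highest of all libraries, and Rnf20 trained replicate 14 and scrambled trained replicate 5 were the lowest pair. Mag means were 392 ± 87.4 CPM in Rnf20 trained, 397 ± 142 CPM in scrambled trained and 429 ± 74.2 CPM in naive libraries, and the difference between scrambled trained and naive libraries was -0.11 (SE 0.22, 95% interval -0.58 to 0.36, edgeR adjusted p = 0.897). The direction for Mag rested on single libraries: without scrambled trained replicate 5 the difference was 0.0091, and without replicate 10 it was -0.32. Mog, which sits on the outermost surface of the sheath and is a target of autoantibodies in demyelinating disease, averaged 198 ± 29.3 CPM in Rnf20 trained, 184 ± 53.2 CPM in scrambled trained and 219 ± 30.7 CPM in naive libraries. Mog ranged from 152 to 226 CPM in Rnf20 trained, 136 to 268 CPM in scrambled trained and 172 to 244 CPM in naive libraries, so the widest range, which held both of the others, was that of the scrambled trained group. Its difference between scrambled trained and naive libraries was -0.25 (SE 0.17, edgeR adjusted p = 0.655).

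Cnp and Ugt8 encode enzymes of the sheath. Cnp, a cyclic nucleotide phosphodiesterase of the cytoplasm-filled channels of myelin, averaged 918 ± 113 CPM in Rnf20 trained, 905 ± 216 CPM in scrambled trained and 1051 ± 121 CPM in naive libraries. Its scrambled trained libraries split, with replicates 10 and 15 at 1153 and 1102 CPM inside the naive range and replicates 5, 6 and 16 at 745, 664 and 861 CPM below it. Ugt8, the ceramide galactosyltransferase that makes the main glycolipid of myelin, averaged 229.7 ± 42.7 CPM in Rnf20 trained, 226 ± 75.1 CPM in scrambled trained and 263 ± 38.8 CPM in naive libraries. Scrambled trained replicate 10, at 353 CPM, exceeded every naive library for Ugt8. The difference between scrambled trained and naive libraries was -0.22 for Cnp (SE 0.15, 95% interval -0.53 to 0.10, edgeR adjusted p = 0.661) and -0.22 for Ugt8 (SE 0.19, 95% interval -0.63 to 0.18, edgeR adjusted p = 0.726). Rnf20 trained against scrambled trained libraries gave 0.02 for Cnp (95% interval -0.30 to 0.34) and 0.03 for Ugt8 (95% interval -0.38 to 0.43), both centred near 0, with an upper bound for Ugt8 above the difference fitted for Opalin.

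**Figure D2:**
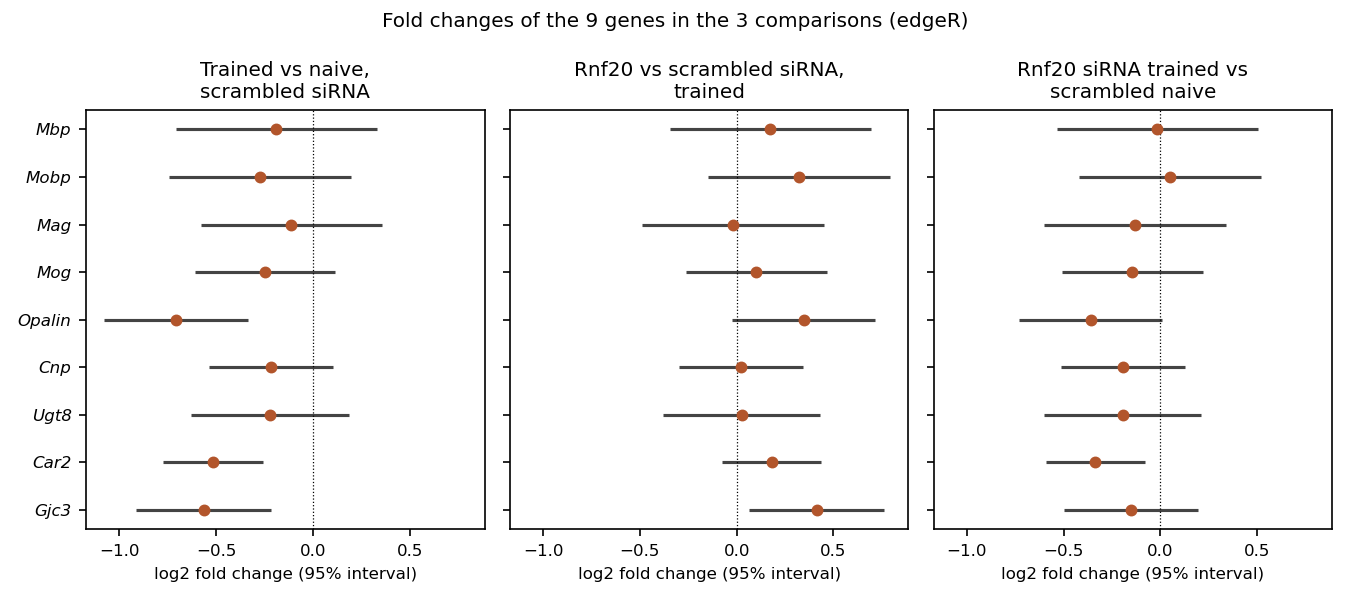
Log2 fold changes of the 9 genes (points) with 95% intervals (lines) from edgeR in the 3 comparisons. Only the intervals of Opalin, Car2 and Gjc3 lie wholly below 0 for trained against naive libraries under scrambled siRNA, only that of Gjc3 wholly above 0 for Rnf20 against scrambled siRNA, and only that of Car2 wholly below 0 for Rnf20 trained against naive libraries; no gene passed after adjustment.

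As a group, the 9 genes lay on 1 side of 0 in scrambled trained against naive libraries, 9 of 9 below, where 52.8% of all genes lay below 0 and the median of all genes was -0.01. Of the 9, 3 had an unadjusted p under 0.05 and a lower level, against 3.35% of all genes. Because the 9 were chosen with earlier results of these data known, these shares are a description and not independent support. In Rnf20 trained against scrambled trained libraries 8 of 9, all but Mag, lay above 0 (median 0.17), against 50.7% of all genes. Among scrambled trained libraries, omitting replicate 6 brought that median to 0.03, omitting replicate 5 to 0.11 and omitting replicate 10 to 0.28. Among Rnf20 trained libraries, omitting replicate 4 brought it to 0.07 and omitting replicate 18 to 0.09. In Rnf20 trained against naive libraries 8 of 9, all but Mobp, lay below 0 (median -0.15, and -0.10 without Rnf20 trained replicate 14 or -0.23 without replicate 4), against 49.4%. Each pair of these comparisons shares a group of 5 libraries, and the 9 genes move together from library to library, so the counts of directions are neither 9 separate observations nor 3 separate comparisons. The median between scrambled trained and naive libraries was -0.44 when scrambled trained replicate 10 was left out and -0.13 when replicate 6 was. Leaving out replicate 10 raised to 6 the number of the 9 genes with an unadjusted p under 0.05. The share of all genes at that p without replicate 10 was not computed.

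The summed level of the 9 ranged widely within each group. It ran from 9441 to 16803 CPM in Rnf20 trained, 7723 to 18791 CPM in scrambled trained and 10258 to 18399 CPM in naive libraries. Scrambled trained replicate 10 was the highest of 15 libraries for 5 genes (Mbp, Mog, Mag, Mobp and Ugt8), and replicate 6 of the same group was the lowest for 8 (all but Mag). The ratio of the highest to the lowest library was 1.84 for Cnp, the smallest of the 9, and 2.67 for Opalin, the largest. Naive means were the highest for 8 genes, all but Mobp, and scrambled trained means the lowest for 8, all but Mag. The shares of all genes with these orders were not computed.

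Replicate 10 also differed from the other libraries in regional markers. Its summed level of striatal markers was 946 CPM, while the other 4 scrambled trained libraries lay from 162 to 225 CPM, Rnf20 trained libraries from 203 to 435 CPM and naive libraries from 224 to 512 CPM. Its summed level of CA1 neuron markers, 271 CPM, was the lowest of the 15, where the others lay between 475 and 1570 CPM. The highest, 1570 CPM, was that of scrambled trained replicate 6, the lowest library for 8 of the 9 genes. The striatal sum of replicate 6 was 170 CPM, and only that of replicate 15, 162 CPM, was lower. Across the 15 libraries the mean standardised level of the 9 genes went with striatal markers (Pearson 0.72, Spearman 0.81, and 0.71 without the 2 libraries farthest from the median) and against CA1 neuron markers (-0.67, -0.66 and -0.45 without those 2), as a description over libraries that share groups and scaling. With the striatal marker level as a covariate, a setting added after the data were seen, the fold changes between scrambled trained and naive libraries were -0.66 for Opalin, -0.48 for Car2 and -0.51 for Gjc3. Without replicate 10 they were -0.85 for Opalin, -0.55 for Car2 and -0.69 for Gjc3. Without replicate 6 they were -0.59 for Opalin, -0.44 for Car2 and -0.45 for Gjc3. The part of other tissue in these levels was not tested. The covariate held striatal markers alone, and its highest level was that of replicate 10.

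**Figure D3:**
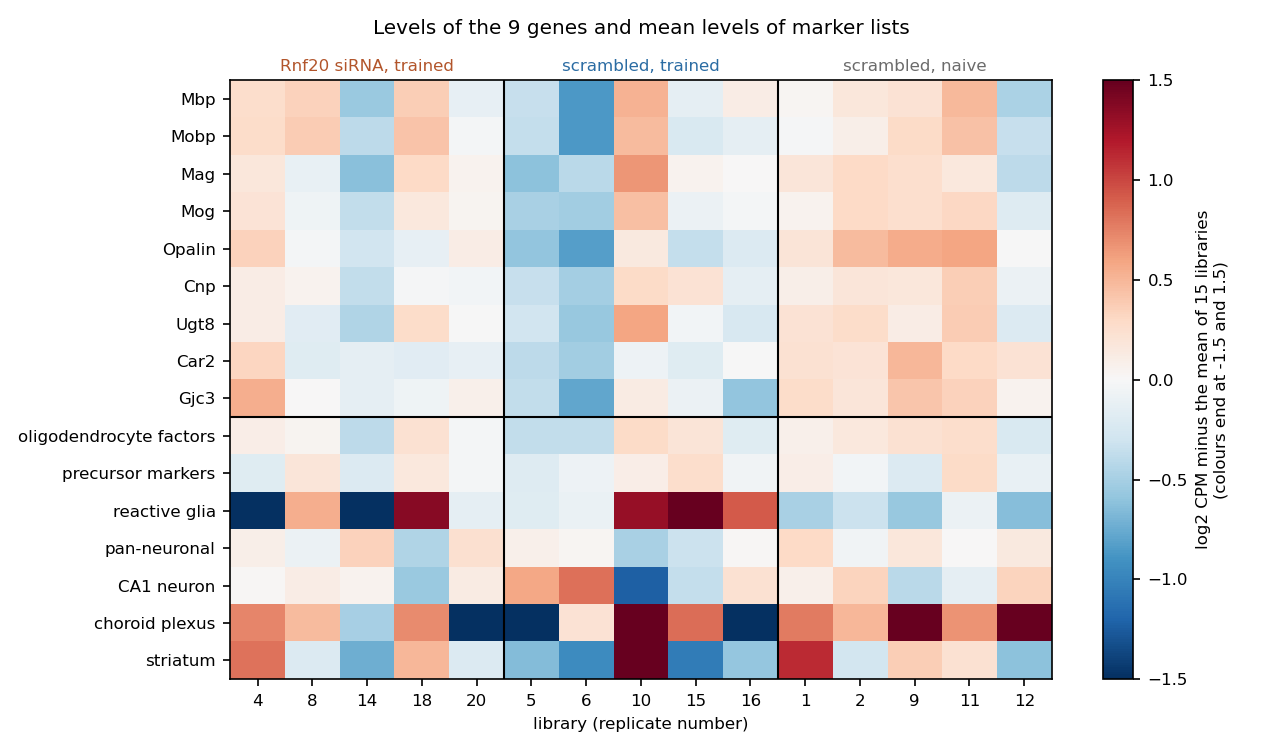
Level of the 9 genes (rows above the line) and mean level of marker lists (rows below it) in each library, as log2 CPM minus the mean of the 15 libraries, with colours ending at -1.5 and 1.5. Scrambled trained replicate 10 is high and replicate 6 low in most of the 9 rows, and the oligodendrocyte factor row follows the 9 genes more closely than the reactive glia or choroid plexus rows do.

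Reactive glia genes went little with the 9 across libraries. Of 17 tested, 17 were above 0 in scrambled trained against naive libraries (median 1.25), where 52.8% of all genes lay below 0. Of these, 10 had an unadjusted p under 0.05, against 6.62% of all genes with such a p and a higher level, and 0 passed after adjustment in edgeR. Their summed level was 2677 to 9225 CPM in Rnf20 trained, 4825 to 10495 CPM in scrambled trained and 3501 to 5217 CPM in naive libraries. The correlation of that list's level with the 9 genes was 0.12 over 15 libraries, that of microglia markers 0.05 and that of pan-neuronal markers -0.27. Group means were not removed for these coefficients, so they mix differences between groups with those within groups. Coefficients within groups were not computed for these lists. In mean log2 CPM, scrambled trained replicates 5 and 6, Rnf20 trained replicate 14 and naive replicate 12 were lowest of their groups in both lists. Rnf20 trained replicate 4 was highest of its group in the 9 but lay below replicates 8, 18 and 20 in reactive glia. Of 12 pan-neuronal genes, 12 were below 0 in scrambled trained against naive libraries (median -0.20), and with their level as a covariate the difference was -0.84 for Opalin and -0.50 for Mbp. The part of these cell types in the result was not tested.

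Defining factors of oligodendrocytes were present in all 15 libraries. Sox10, a factor of the whole lineage, ranged over 62.7 to 115 CPM and Olig2 over 33.8 to 58.7 CPM across the 15 libraries. Of the Schwann cell markers, the myelin genes Ncmap, Prx and Pmp2 were at 0 to 0.0591 CPM, 2.54 to 4.93 CPM and 0.250 to 5.96 CPM. Of the others on that list, Egr2, also an immediate early gene of neurons, was at 0.628 to 10.02 CPM, Cdh19 at 5.09 to 14.6 CPM, and Sox2, a factor of neural progenitors and glia, at 50.2 to 73.0 CPM. Schwann cell markers were thus not all at or near 0, and their part in the levels was not tested. Neuronal transcripts were present throughout, with Snap25 between 1129 and 2344 CPM and the CA1 gene Wfs1 between 132 and 1020 CPM.

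To set each gene against the other 8 within a library, the mean log2 CPM of the other 8 was subtracted from its own. On that scale Opalin stood at -1.02 ± 0.08 in scrambled trained libraries (-1.11 to -0.91) and at -0.62 ± 0.09 in naive libraries (-0.76 to -0.55; SD, n = 5 each). The groups did not overlap, all 5 scrambled trained libraries being lower, and the difference of -0.40 reached the smallest p that dividing 10 libraries into 5 and 5 allows (two-sided exact permutation test, p = 0.00794). After Benjamini-Hochberg adjustment over 27 such tests it was 0.214, and 0 of the 27 passed. With any 1 library left out, the difference lay between -0.44 and -0.38. Rnf20 trained libraries stood at -0.83 ± 0.17 (-1.10 to -0.70), a difference of 0.19 from scrambled trained libraries (exact permutation p = 0.0635, adjusted 0.295) and of -0.21 from naive libraries (exact permutation p = 0.0317, adjusted 0.295). In the Rnf20 trained group replicate 18 alone lay within the scrambled trained range.

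On the same relative scale the groups overlapped for Car2, Mag and Gjc3. Car2 was at -0.47 ± 0.26 in scrambled trained and -0.29 ± 0.20 in naive libraries (difference -0.17, exact permutation p = 0.302, adjusted 0.429). Mag was at 0.07 ± 0.22 in scrambled trained and -0.17 ± 0.16 in naive libraries (difference 0.24, exact permutation p = 0.0873, adjusted 0.295). Gjc3 was at -4.76 ± 0.23 in scrambled trained and -4.51 ± 0.13 in naive libraries (difference -0.25, exact permutation p = 0.0635, adjusted 0.295).

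**Figure D4:**
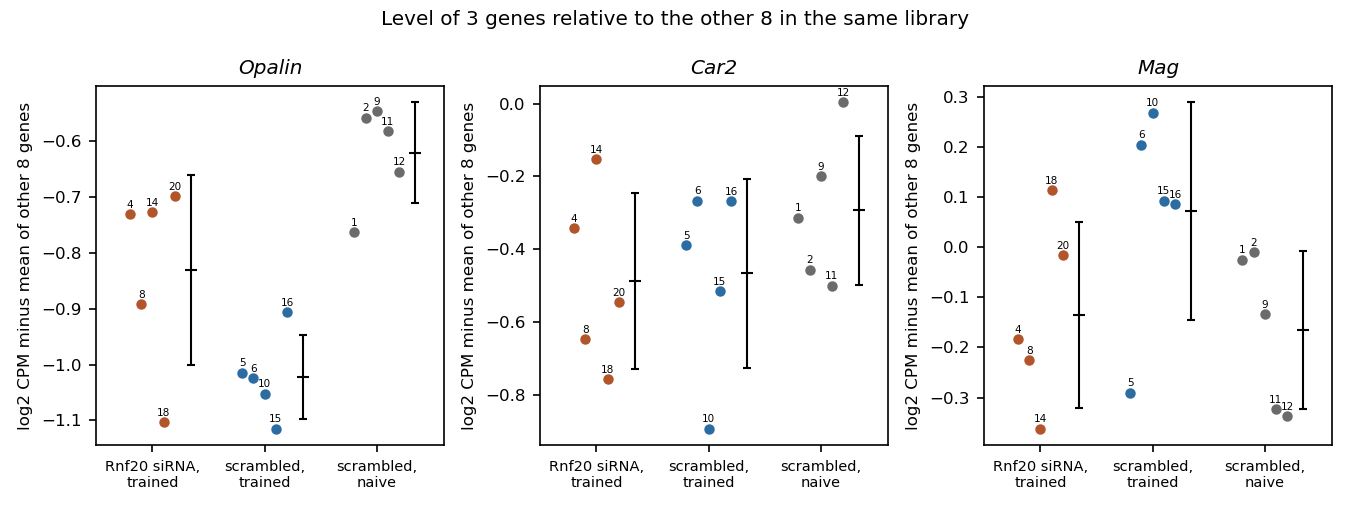
Log2 CPM of Opalin, Car2 and Mag minus the mean log2 CPM of the other 8 genes in the same library (axes do not start at 0), with replicate numbers and mean ± SD of 5 libraries. For Opalin the 5 scrambled trained libraries, from -1.11 to -0.91, lie below the 5 naive ones, from -0.76 to -0.55, while for Car2 and Mag the groups overlap.

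Among themselves the 9 genes were positively correlated in all 36 pairs over the 15 libraries, with Pearson coefficients from 0.47 to 0.97 and a median of 0.80. After removal of group means the range was 0.43 to 0.98 with a median of 0.83, so the likeness was as high within groups. Mbp and Mobp were the closest pair (0.97), followed by Mog with Mag (0.93) and Mog with Ugt8 (0.93). Opalin was closest to Car2 (0.90) and Gjc3 (0.89) over the 15 libraries, but after removal of group means it was closest to Mog (0.92), with 0.78 for Car2 and 0.79 for Gjc3. Car2 was the loosest member, with a median of 0.59 over its pairs against 0.82 over pairs without it. These coefficients share library, scaling and group and are given as a description.

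Of 14077 other genes with a mean of at least 1 CPM, the one most like the mean standardised level of the 9 was Fa2h, which hydroxylates the fatty acids of myelin galactolipids (Pearson 0.96, Spearman 0.98, and 0.95 without the 2 farthest libraries). Another 6 of the 8 most alike, all at 0.95, were Ttll9, LOC361016, Rffl, Slc6a9, Evi2a and Prima1, of which Evi2a is on the wider list of mature oligodendrocyte genes.

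The wider lineage was read from 79 other tested genes in 6 lists, from newly forming cells to compact myelin, with 8 precursor markers kept apart. Between scrambled trained and naive libraries 57 of the 79 lay below 0, with a median of -0.14, and 12 had an unadjusted p under 0.05 and a lower level, against 52.8% and 3.35% of all genes. When scrambled trained replicate 10 was left out, 22 had such a p, in either direction. With the pan-neuronal level or 1 surrogate variable as a covariate, 36 and 40 did. The share of all genes was not computed for those fits, and the 3.35%, for the lower direction alone, does not apply to them. None passed after adjustment in edgeR, and DESeq2 called 1, Tubb4a (-0.39, DESeq2 adjusted p = 0.0440). The genes of the paranode, axon contact and cytoskeleton lay below 0 in 14 of 14 (median -0.29), and 7 of these had an unadjusted p under 0.05. Pan-neuronal genes also lay below 0 in 12 of 12 (median -0.20), 0 of them with such a p. The part of neurons in the levels of the wider lists was not tested. Tppp, a tubulin-binding protein of oligodendrocyte processes, stood at 102 ± 11.4 CPM in scrambled trained and 129 ± 11.0 CPM in naive libraries (-0.34, SE 0.09, edgeR adjusted p = 0.379). Tubb4a, a tubulin abundant in oligodendrocytes, stood at 992 ± 93.8 CPM in scrambled trained and 1298 ± 127 CPM in naive libraries (-0.39, SE 0.11, edgeR adjusted p = 0.379). Both separated the groups without overlap, against 0.659% of all genes, as did 1 more of the 79, Gpr37, an orphan receptor of maturing oligodendrocytes, at 163 ± 16.1 CPM in scrambled trained and 221 ± 33.4 CPM in naive libraries (-0.44, SE 0.12).

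The other lists of maturing cells had medians nearer 0. Of all genes, 52.8% lay below 0 in this comparison, and 3.35% had an unadjusted p under 0.05 and a lower level. Of 9 further compact myelin genes, 6 lay below 0 (median -0.14) and 3 had an unadjusted p under 0.05, led by Tspan2, a tetraspanin of the sheath (251.1 ± 45.6 CPM in scrambled trained and 355 ± 57.2 CPM in naive libraries; -0.50, SE 0.17), and Mal, a raft proteolipid (484 ± 126 CPM in scrambled trained and 660.2 ± 97.1 CPM in naive libraries; -0.45, SE 0.17). Transcription factors of the lineage lay below 0 in 10 of 11 (median -0.18), with Sox8 at 34.5 ± 3.21 CPM in scrambled trained and 41.3 ± 5.20 CPM in naive libraries and Zfp536 at 16.6 ± 2.10 CPM in scrambled trained and 18.9 ± 1.40 CPM in naive libraries. Other mature oligodendrocyte genes lay below 0 in 15 of 22 (median -0.11), and Ndrg1, a cytoplasmic protein of myelinating cells, stood at 144 ± 32.4 CPM in scrambled trained and 178 ± 28.5 CPM in naive libraries. Lipid synthesis genes lay below 0 in 8 of 13 (median -0.08) and none had an unadjusted p under 0.05, with Fa2h at 68.2 ± 19.4 CPM in scrambled trained and 83.6 ± 10.5 CPM in naive libraries.

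Among earlier stages of the lineage the medians were near 0, in the same comparison where 52.8% of all genes lay below 0. Precursor markers lay below 0 in 4 of 8 (median 0.01) and genes of newly forming oligodendrocytes in 4 of 10 (median 0.02), and none of either had an unadjusted p under 0.05. Gpr17, a receptor of cells about to differentiate, stood at 36.7 ± 16.3 CPM in scrambled trained and 49.2 ± 17.4 CPM in naive libraries (-0.42, SE 0.27), and Rras2 at 25.6 ± 3.39 CPM in scrambled trained and 23.0 ± 4.34 CPM in naive libraries (0.15, SE 0.14). Over the 15 libraries the level of the 9 genes went with that of the paranode list (Pearson 0.97) and of the transcription factors (0.91), and less with that of precursor markers (0.36) or newly forming cells (0.40). No test of a difference between stages was made, and Olig2 is on both the factor list and the precursor list.

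**Figure D5:**
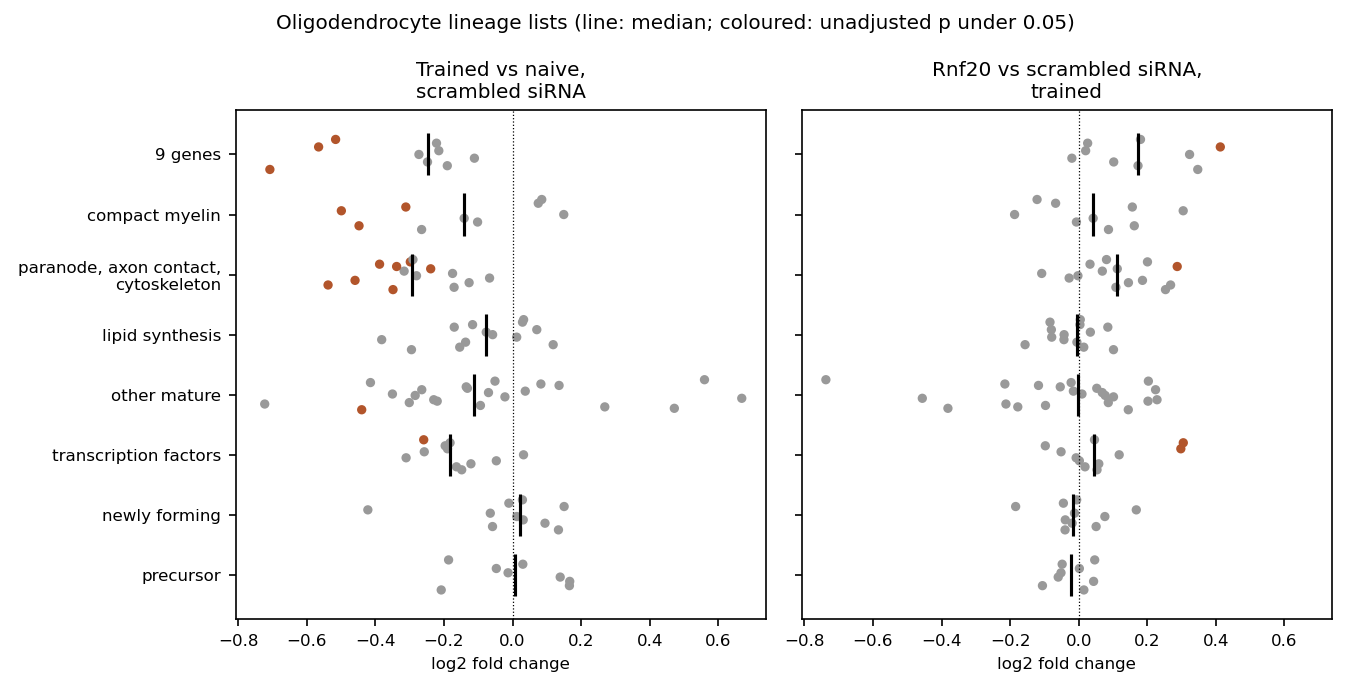
Log2 fold changes of the 9 genes and of 7 wider oligodendrocyte lineage lists (1 point per gene, vertical line at the list's median, coloured where the unadjusted edgeR p is under 0.05) in 2 comparisons. For scrambled trained against naive libraries the medians are -0.25 for the 9 genes and -0.29 for the paranode list. There they are 0.02 and 0.01 for newly forming cells and precursors. For Rnf20 against scrambled siRNA the medians lie between -0.02 and 0.17.

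Between Rnf20 trained and scrambled trained libraries, 44 of the 79 wider genes lay above 0 and 3 had an unadjusted p under 0.05 with a higher level, against 50.7% and 2.63% of all genes. These 3 were Tppp at 124 ± 12.6 CPM in Rnf20 trained and 102 ± 11.4 CPM in scrambled trained libraries (0.29, SE 0.10, edgeR adjusted p = 0.832), the transcription factor gene Zfp536 (0.31, SE 0.11) and the zinc finger factor gene St18, named after its value was seen (0.30, SE 0.12). In either direction, 7 had such a p when Rnf20 trained replicate 18 or scrambled trained replicate 10 was left out. Between Rnf20 trained and naive libraries 62 of 79 lay below 0, against 49.4% of all genes, and Tubb4a (-0.35, SE 0.11) and Gpr37 (-0.30, SE 0.12) were the 2 with an unadjusted p under 0.05, against 1.09% of all genes with such a p and a lower level. Omitting Rnf20 trained replicate 4 gave 6 such genes, omitting scrambled trained replicate 10 or naive replicate 12 gave 4, and omitting Rnf20 trained replicate 8, 14 or 20 gave 1. None of these passed after adjustment, and the shares of all genes at that unadjusted p with libraries left out were not computed.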

How the data were processed

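The tools named in the submitters' processing notes are Trim Galore, FastQC, featureCounts 2.0.1 and DESeq2, with the rat build Rnor_6.0. None of strand setting, aligner or annotation release is stated: each was not given in the sources used here. Libraries came from a stranded mRNA kit with 14 PCR cycles, per the labels' protocols. The deposited counts of 22314 genes in 15 libraries were used, and a normalised table was not.

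In R 4.3.3, genes passing filterByExpr (14880, with 99.9% of counts) were scaled by TMM and fitted with edgeR 4.0.16's robust quasi-likelihood test over all 15 libraries (12 residual degrees of freedom, biological coefficient of variation 0.208), adjusted by Benjamini-Hochberg over all genes at 0.05. CPM is a count over the TMM-scaled library size, and log2 CPM has a prior count of 2. Alternatives included DESeq2 1.42.0, limma 3.58.1 voom, other scalings and filters, marker levels or 1 sva 3.50.0 surrogate variable as a covariate, and libraries left out. The fit was tested on simulated counts.

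The 9 genes, the lists and the tests were chosen with earlier results of these data known. The named genes are the 9, the 2 of smallest p per wider list between scrambled trained and naive libraries, Rnf20, and the 8 most like and 8 most unlike the 9 across libraries. A few genes that this rule names are not reported here. Gene lengths were not used, so levels are not compared between genes. Counting error was at most 2.34% of a value for the genes other than Gjc3. RefSeq promoters are on another assembly than the counts and were matched by symbol.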

Additional observations from a re-analysis of the deposited data

Results flagged for a closer look

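In 27 groups of 5 libraries (9 genes in 3 groups each), 3 held a library above Dixon's 95% critical value for 5 samples. The value compared is a library's gap to its nearest neighbour over the range of its group, and chance flags about 1 group in 20. The 9 genes move together and share the same libraries, so the 27 groups are not separate chances. Rnf20 trained replicate 4 stood apart for Gjc3, at 35.5 CPM with the next library at 25.7 CPM, and for Car2, at 401 CPM with the next at 295 CPM. The same library was the highest of its group in Opalin and in striatal markers. Naive replicate 12 stood apart for Mag, at 301 CPM with the next naive library at 439.7 CPM.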

How the results depend on the processing

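No paired analysis was possible because no replicate number is shared between groups. Under 30 alternative settings no gene of the 9 passed after adjustment in any comparison, except 2 (Opalin and Car2) with DESeq2 between scrambled trained and naive libraries, where DESeq2 also called 1 wider gene and 58 genes in all, against 0 with edgeR; with 1 surrogate variable edgeR called 2 genes in all. Between scrambled trained and naive libraries the 3 genes with an unadjusted p under 0.05 became 9 with the pan-neuronal level as a covariate, 9 with 1 surrogate variable, 8 without scrambled trained replicates 10 and 15 and Rnf20 trained replicates 14 and 18 (far out on component 1 in an earlier analysis), 6 without scrambled trained replicate 10 and Rnf20 trained replicate 4 (chosen after seeing the data), and 3 to 6 with 1 library left out, 6 being without scrambled trained replicate 10. Opalin ran from -0.89 to -0.59, Car2 from -0.58 to -0.44 and Gjc3 from -0.83 to -0.45 in that comparison. The median of the 9 ran from -0.52 to -0.13. The share of all genes with an unadjusted p under 0.05 was not computed under the alternative settings. The counts at that p thus have no background and are not read as particular to the 9.

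Between Rnf20 trained and scrambled trained libraries the 1 such gene became 2 with limma-voom, 0 with the microglia level, 3 with the pan-neuronal level and 2 with the striatal level as a covariate, 5 with 1 surrogate variable, 6 without the 4 libraries, 0 without the 3 libraries lowest in choroid plexus markers and 3 without the chosen pair. With 1 library left out it was 0 to 3: 0 without Rnf20 trained replicate 4 or scrambled trained replicate 6 or 16, 2 without Rnf20 trained replicate 14 and 3 without scrambled trained replicate 10. Between Rnf20 trained and naive libraries the 1 such gene became 2 with DESeq2, with no filter, with only the 2 groups fitted, with the striatal level and with 1 surrogate variable, 3 with the pan-neuronal level and without the chosen pair, 0 without the 4 libraries, and 1 to 2 with 1 library left out, 2 without Rnf20 trained replicate 4, scrambled trained replicate 6 or 10, or naive replicate 1 or 12. Of the 79 wider genes, the 12 with an unadjusted p under 0.05 between scrambled trained and naive libraries became 36 with the pan-neuronal level, 40 with 1 surrogate variable, 38 without the 4 libraries, 23 without the chosen pair, and 8 to 22 with 1 library left out. The 3 between Rnf20 trained and scrambled trained libraries became 7, 15 and 22 under the first 3 of these settings, 1 without the 3 libraries, and 2 to 7 with 1 left out. The 2 between Rnf20 trained and naive libraries became 11, 8, 4 and 9 under the same 4 settings, 5 with only the 2 groups fitted, 4 with the striatal level, and 1 to 6 with 1 left out. The share of all genes at that p was not computed under these settings either, and the cause of these moves was not tested.

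Directions that turned were all uncalled. Between Rnf20 trained and scrambled trained libraries Mag turned to 0.010 (limma-voom), 0.15 (microglia level), 0.19 (pan-neuronal level), 0.25 (surrogate variable), 0.34 (without 4) and 0.15 (without the pair), and ran from -0.14 to 0.20 with 1 library left out. There Cnp turned to -0.00701 (striatal level) and -0.084 (without 3), and ran from -0.077 to 0.13, while Ugt8 turned to -0.0087 and -0.10 under the same settings, and ran from -0.081 to 0.25. Between scrambled trained and naive libraries Mag turned to 0.047 (without 3), and ran from -0.32 to 0.0091. Between Rnf20 trained and naive libraries Mbp turned to 0.00737 (striatal level), 0.058 (without 4) and 0.032 (without 3), and ran from -0.12 to 0.11, and Mobp turned to -0.063 (pan-neuronal level), and ran from -0.035 to 0.16. Depth limits little here: counting error was below the spread between libraries for every one of the 9 genes.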

Other observations

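Among 14077 genes, the 8 whose level ran most against that of the 9 over the 15 libraries were Dusp6, which encodes a phosphatase of ERK kinases (Pearson -0.93, Spearman -0.89, and -0.84 without the 2 farthest libraries), the kinase gene Mapk14 (-0.90, Spearman -0.84), Stac, Akirin1, Noc4l, Trpc4, Pwp2 and Get3. Dusp6 stood at 58.8 ± 6.83 CPM in Rnf20 trained, 66.9 ± 17.7 CPM in scrambled trained and 54.4 ± 6.81 CPM in naive libraries (SD, n = 5 each), with its highest library in the scrambled trained group. Mapk14 stood at 81.9 ± 3.84 CPM in Rnf20 trained, 85.4 ± 6.61 CPM in scrambled trained and 79.1 ± 3.85 CPM in naive libraries. Oligodendrocyte genes outside the 9 that lay above 0 between scrambled trained and naive libraries included Klk6, a protease (0.67, SE 0.38, edgeR adjusted p = 0.580), and Apod, a lipid carrier (0.27, SE 0.29, edgeR adjusted p = 0.784), both named after their values were seen. Enpp2, which choroid plexus markers share with the mature oligodendrocyte list, gave -0.72 (SE 0.44).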
